A study of Mus musculus with 5 samples.

Results

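The Fc receptor genes are 6 of the 21983 genes in the count table, found by matching the gene symbols Fcgr1, Fcgr2b, Fcgr3, Fcgr4, Fcer1g and Fcgrt. All 6 were counted in every library, at 250 to 15472 reads, and all 6 were among the 12543 genes that passed the filter on low counts. RNA was sequenced from microglia, the resident macrophages of the brain, prepared from mouse brain as primary cells. The 2 libraries that the labels call knockout carry the genotype Cx3cr1CreERT2 Ythdf2fl/fl, in which a tamoxifen-inducible Cre recombinase sits at the Cx3cr1 locus. The 3 controls are Ythdf2fl/fl without Cre, so floxed Ythdf2 alleles are shared by all 5 libraries and Cre is present in 1 group alone. The series asks which processes and signalling pathways differ when microglia lose Ythdf2, whose protein binds N6-methyladenosine (m6A) in mRNA and promotes the decay of the mRNAs that carry it.

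Loss of Ythdf2 and the presence of Cre at Cx3cr1, a locus that other brain macrophages and some monocytes also use, cannot be told apart in this design. The labels give no age, sex or tamoxifen schedule and do not say whether the libraries came from separate animals or cultures. The p-values therefore measure only the spread between these libraries, which may be technical. Ythdf2 itself goes against the labels: it stood at 103 and 127 CPM, read counts scaled to library size, in the labelled knockout libraries and at 57.0, 69.2 and 68.8 CPM in the controls. A count over the whole gene also takes reads outside the deleted part, and reads over that part were not examined separately. These counts therefore do not show whether Ythdf2 was lost, and why they were higher was not tested. Every direction below is drawn from the labels. Total gene counts ran from 13947500 to 19577217 per library, and any 2 libraries differed far beyond counting noise (chi-square per degree of freedom 53.4 to 273). Of 12 microglia markers, 11 had counts in every library, and their summed level was 5091 and 11506 CPM in the labelled knockout libraries against 10462, 9505 and 11672 CPM in the controls. In bulk RNA, fewer cells of a type and less RNA per cell cannot be told apart.

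Fc gamma receptors bind the constant part of IgG and let macrophages take up antibody-coated targets. Fcgr1, Fcgr3 and Fcgr4 encode activating receptors that signal through the gamma chain encoded by Fcer1g, whose activation motif recruits the kinase Syk. Fcgr2b encodes the inhibitory receptor, which recruits the phosphatase SHIP1 and sets the threshold for activation. Fcgrt encodes the neonatal Fc receptor, which pairs with beta-2 microglobulin and returns IgG from endosomes to the cell surface. In microglia these receptors are known for uptake of opsonised material, and Fcgr1 and Fcgr4 are known as interferon-responsive genes.

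The members did not move as a block. Fcgr3 and Fcgr2b were higher in both labelled knockout libraries than in any control, by 2.97-fold and 2.33-fold between group means. Fcgr1 was lower in both than in any control, by 2.82-fold. Fcgr4, Fcer1g and Fcgrt overlapped between the groups. None of the 6 passed the test across all genes: the edgeR quasi-likelihood test called 0 of 6 members at a Benjamini-Hochberg adjusted p under 0.05, where it called 0% of all 12543 genes (smallest adjusted p 0.231). At an unadjusted p under 0.05 it found 2 of 6, Fcgr3 and Fcgr2b, beside 838 genes (6.68%) over the whole table, 500 higher (3.99%) and 338 lower (2.69%). DESeq2 called 0 of 6 and 232 genes (1.67%) in all, 146 higher (1.05%) and 86 lower (0.621%), and limma-voom called 0 of 6 and 0% of all genes, with 759 (6.05%) at an unadjusted p under 0.05. The labelled knockout libraries exceeded every control in 2 members, a pattern 9.85% of genes showed, and were under every control in 1, which 10.4% showed.

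The 2 labelled knockout libraries were far apart from each other in all 6 members. The second exceeded the first by 2.74-fold in Fcgrt, the smallest gap, and by 3.81-fold in Fcgr4, the widest. It was also the highest of the 5 libraries for Fcgr3, Fcgr2b and Fcgrt. Control 3 was the highest for Fcgr1, Fcgr4 and Fcer1g.

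**Figure D1:**
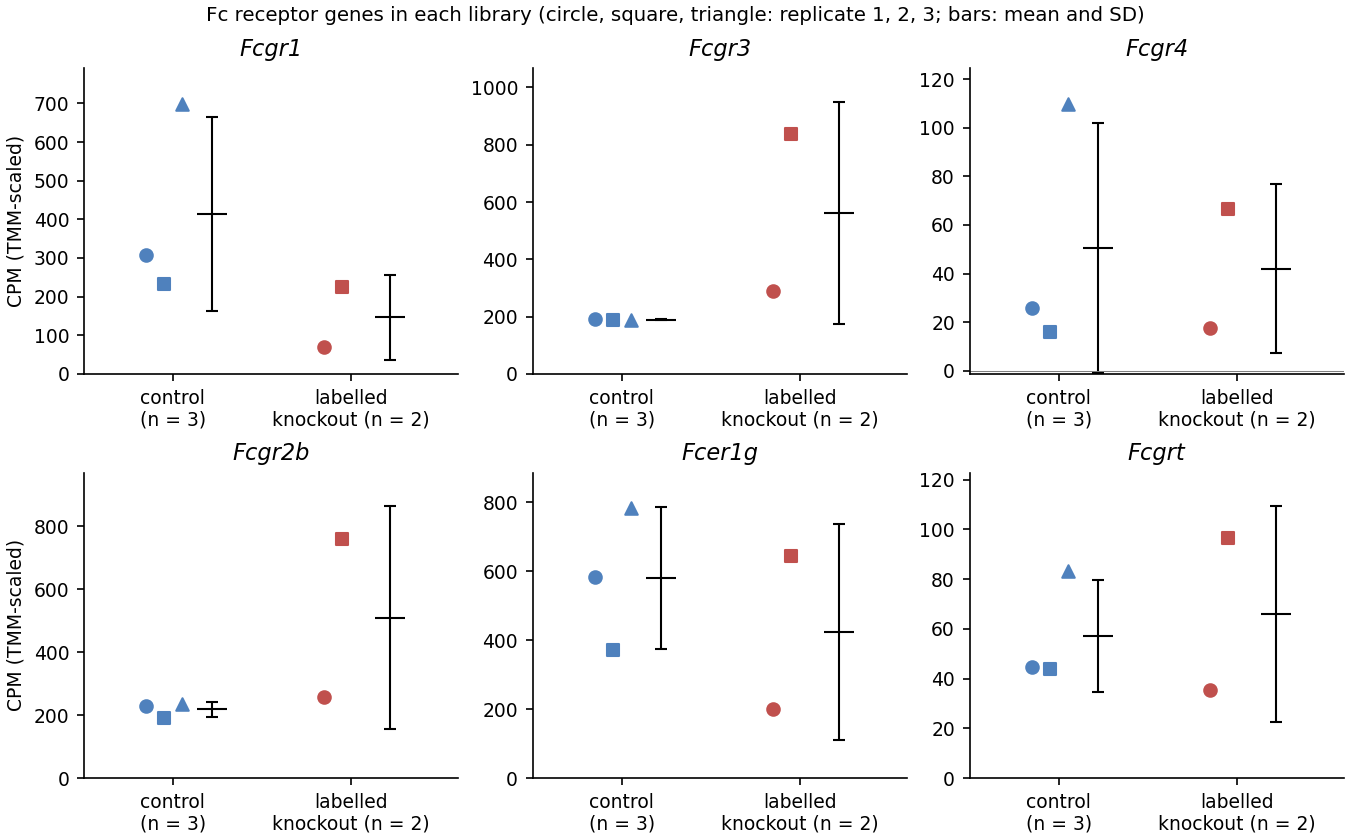
CPM (vertical axes, linear, from 0) of each Fc receptor gene in the 3 controls and the 2 labelled knockout libraries. Points are single libraries and bars the group mean with its SD. Both labelled knockout points lie above the controls for Fcgr3 and Fcgr2b and below them for Fcgr1, and the second labelled knockout library is above the first in every panel.

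Among the activating receptors, Fcgr3 encodes the low-affinity receptor for immune complexes that is widely used on myeloid cells. Its level was 289 and 836 CPM in the labelled knockout libraries and 192, 190 and 187 CPM in the controls. The 3 controls lay almost on top of each other (190 ± 2.58 CPM, SD, n = 3), while the labelled knockout libraries were wide apart at 563 ± 387 CPM (SD, n = 2) and both above the controls. The log2 fold change was 1.57 (SE 0.438), with an edgeR unadjusted p of 0.0123 and an adjusted p of 0.503, and with a DESeq2 adjusted p of 0.0723. Without the labelled knockout library 2 the log2 fold change was 0.61, and without the labelled knockout library 1 it was 2.11. Each of these 2 fits left 1 labelled knockout library, so the spread came from the controls alone.

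Fcgr2b is the only inhibitory member and lies in the same receptor cluster on chromosome 1 as Fcgr3. It stood at 259 and 759 CPM in the labelled knockout libraries, against 229, 191 and 235 CPM in the controls. The first labelled knockout library was only slightly above the highest control, and the second was well above all others. Group means were 509 ± 354 CPM (SD, n = 2) and 218 ± 23.7 CPM (SD, n = 3). This gave a log2 fold change of 1.22 (SE 0.449). The edgeR unadjusted p was 0.0359 and the adjusted p 0.693, and the DESeq2 adjusted p was 0.353. The log2 fold change was 0.25 without the labelled knockout library 2 and 1.77 without the labelled knockout library 1, each with 1 library left in that group.

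Fcgr3 and Fcgr2b are close in sequence, so reads can be shared between them. In a pairwise alignment of their coding sequences 618 of 756 aligned bases were identical (81.7%), and the longest identical run was 129 bases. Of the 50-base windows of the Fcgr3 transcript, 166 of 1298 (12.8%) were also found in the Fcgr2b transcript. At 100 bases the share was 3.53%, and at 150 bases it was 0 of 1198. The sources used here do not give how the authors treated reads that match both genes, and both genes are therefore reported as uncertain. The stretches below hold that shared run with 30 coding bases on either side (GENCODE M21 transcripts, GRCm38, minus strand of chromosome 1, read 5′ to 3′ from spliced exons). They are shown because a read lying inside the run cannot be assigned to 1 of the genes, and the capitals mark the 5 bases at which they differ.
Fcgr2b coding: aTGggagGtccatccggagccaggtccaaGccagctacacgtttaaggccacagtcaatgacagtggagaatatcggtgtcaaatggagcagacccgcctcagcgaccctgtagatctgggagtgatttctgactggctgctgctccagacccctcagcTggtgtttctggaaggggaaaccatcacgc
Fcgr3 coding: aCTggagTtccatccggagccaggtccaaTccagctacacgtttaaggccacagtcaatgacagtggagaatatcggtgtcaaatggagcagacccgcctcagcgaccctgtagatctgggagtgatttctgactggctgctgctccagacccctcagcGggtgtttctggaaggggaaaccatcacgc

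The 4 other pairs of receptor genes compared shared no 50-base window. Their coding identity was 56.0% for Fcgr1 with Fcgr4, 58.3% for Fcgr1 with Fcgr3, 60.4% for Fcgr2b with Fcgr4 and 62.9% for Fcgr3 with Fcgr4. An exon of Fcgr2b also overlaps the antisense gene Gm38204 by 155 bases, and the sources used here do not give whether reads were counted by strand. No exon of another annotated gene overlaps those of the other 5 members.

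Fcgr1 encodes the high-affinity IgG receptor, which binds monomeric IgG2a and lies apart from the others on chromosome 3. Its level was 68.5 and 224 CPM in the labelled knockout libraries, against 307, 233 and 699 CPM in the controls. Both labelled knockout libraries were below every control, though 224 and 233 CPM are nearly the same, and control 3 stood well above the other two. Means were 146 ± 110 CPM (SD, n = 2) and 413 ± 251 CPM (SD, n = 3). The log2 fold change was -1.50 (SE 0.693), with an edgeR unadjusted p of 0.0758, an adjusted p of 0.817 and a DESeq2 adjusted p of 0.460. It was -0.88 without control 3, -0.91 without the labelled knockout library 1 and -2.59 without the labelled knockout library 2.

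Fcgr4 encodes the activating receptor for IgG2a and IgG2b that is found on monocytes, macrophages and neutrophils of rodents. It was counted at 17.5 and 66.6 CPM in the labelled knockout libraries and at 26.0, 15.8 and 110 CPM in the controls. Neither group stood apart: the lowest and the highest library were both controls. The log2 fold change was -0.26 (SE 0.948, edgeR adjusted p = 0.977), and its sign turned to 1.01 without control 3 and to 0.37 without the labelled knockout library 1.

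Fcer1g encodes the gamma chain that the 3 activating receptors need for assembly and signalling. It was at 202 and 645 CPM in the labelled knockout libraries, against 584, 371 and 785 CPM in the controls. The first labelled knockout library was the lowest of all 5, and the second lay inside the range of the controls. The log2 fold change was -0.45 (SE 0.564, edgeR adjusted p = 0.926). Leaving out the labelled knockout library 1 turned it to 0.12, and leaving out the labelled knockout library 2 took it to -1.52.

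Fcgrt, the neonatal receptor gene on chromosome 7, was at 35.3 and 96.7 CPM in the labelled knockout libraries and at 44.8, 43.8 and 83.3 CPM in the controls. The labelled knockout libraries held both the lowest and the highest value. The log2 fold change was 0.21 (SE 0.503, edgeR adjusted p = 0.962), and it was -0.70 without the labelled knockout library 2. B2m, the light chain of this receptor, was at 359 and 2252 CPM against 1900, 906 and 4171 CPM. Its log2 fold change was -0.83 (SE 0.935), and it was -2.69 without the labelled knockout library 2, -0.07 without the labelled knockout library 1 and -0.11 without control 3. The groups overlapped, and the lowest and highest libraries were those for Fcgr1.

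**Figure D2:**
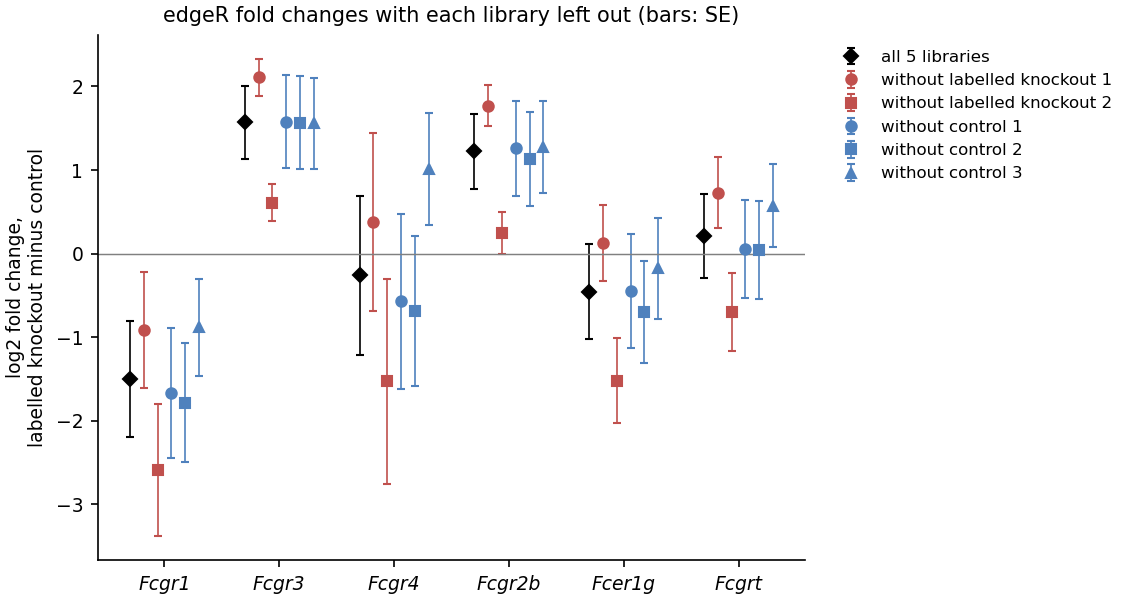
edgeR log2 fold change of each member (vertical axis, labelled knockout minus control) with all 5 libraries and with each library left out, and bars of 1 SE. Fcgr3 and Fcgr2b stay above 0 and Fcgr1 below 0 at every point, with Fcgr2b at 0.25 without the labelled knockout library 2, while Fcgr4, Fcer1g and Fcgrt cross 0.

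Markers of other cells that carry Fc receptors were read in the same libraries. Blk, a kinase gene of B cells, was at 0 in every library, and 1 of 7 B cell markers in the table had counts in all libraries (summed level 32.8 to 110 CPM). NK and T cell markers summed to at most 0.127 CPM, with 7 of 8 at 0 throughout, among them Ncr1 and Nkg7. For mast cells and basophils, Fcer1a and Ms4a2, both chains of the IgE receptor, were at 0 in every library. Neutrophil markers summed to 44.1 to 222 CPM, with S100a9, Ly6g, Retnlg and Mpo at 0 throughout.

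Macrophages of the brain borders, which also express these receptors, had 9 of 9 markers counted in every library. Their summed level was 3135 and 5263 CPM in the labelled knockout libraries and 2110, 2152 and 6069 CPM in the controls, with control 3 the highest. Siglec1 and Mrc1, which overlapped between the groups, supply most of this sum, and the median log2 fold change of the 8 tested markers was 0.99. Of these 8 markers, 1 lay above every control and 1 below, where 9.85% and 10.4% of all genes did so. The marker above, F13a1, was at 79.1 and 185 CPM against 29.9, 47.0 and 23.9 CPM (DESeq2 adjusted p = 0.0114, edgeR adjusted p = 0.369). Monocyte markers, with 6 of 10 counted in every library and Chil3 at 0, summed to 2319 and 1438 CPM against 1392, 1810 and 371 CPM. Most of that sum is Fn1. Of the 6 monocyte markers tested, 2 lay above and 1 below every control (9.85% and 10.4% of all genes), and the 2 above were Ace and Spn. Ace was at 38.5 and 13.1 CPM against 0.943, 1.01 and 2.45 CPM (DESeq2 adjusted p = 9.88e-07, edgeR adjusted p = 0.262). Spn was at 15.2 and 8.32 CPM against 1.51, 2.79 and 2.75 CPM (DESeq2 adjusted p = 0.00234, edgeR adjusted p = 0.340). Choroid plexus and ependymal markers separated the groups in the direction of Fcgr3 and Fcgr2b, at 169 and 225 CPM against 30.7, 11.9 and 29.6 CPM, with 7 of 8 counted in every library and none at 0 in all. Oligodendrocyte markers, 10 of 10 counted in every library, ran from 12630 CPM in the labelled knockout library 1 down to 1286 CPM in control 3, which are also the lowest and the highest library for Fcgr1. Fibroblast and mural markers separated the groups in the direction of Fcgr1, at 34.8 and 15.6 CPM against 128, 122 and 41.1 CPM. In this list 6 of 9 were counted in every library, none was at 0 in all and 5 of 7 tested lay below every control (10.4% of all genes). Single markers named here were chosen after their values were seen. The part of any of these in the members' values was not tested.

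Short transcripts were counted unequally between libraries. Over 452 genes whose longest transcript is at most 1 kb, the median log2 CPM relative to the gene mean was -0.69 and 0.44 in the labelled knockout libraries and 0.32, -0.36 and 0.33 in the controls. Fcer1g, with the shortest transcript of the members at 683 bases, ran in the same order at the bottom of its range, with the labelled knockout library 1 the lowest and control 2 next. After each library was corrected for its trend on transcript length, the log2 fold changes were -1.53 for Fcgr1, 1.16 for Fcgr2b and 1.55 for Fcgr3. They were -0.21 for Fcgr4, -0.40 for Fcer1g and 0.22 for Fcgrt, and 0 of 6 were called by edgeR (adjusted p = 0.264 for Fcgr3, with an unadjusted p of 0.00239).

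To set members against each other within a library, counts were divided by the length of 1 transcript each (CPM per kb). The order of these levels was the same in both labelled knockout libraries: Fcer1g first, then Fcgr3, Fcgr2b, Fcgr1, Fcgrt and Fcgr4. Fcer1g stood at 299.9 and 957 CPM per kb there, and at 867, 551 and 1165 CPM per kb in the controls, where it was also first. Fcgr3 came next in the labelled knockout libraries, at 215 and 621 CPM per kb. In the controls Fcgr3 was at 139 to 143 CPM per kb and Fcgr1 at 89.9 to 270 CPM per kb, and these 2 levels overlapped. Fcgr2b was at 53.9 to 66.3 CPM per kb in the controls, below both. Fcgr4, at 12.6 to 87.4 CPM per kb, overlapped Fcgr2b and also Fcgrt, at 24.8 to 47.0 CPM per kb.

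Before any correction for the trend on transcript length, the makeup of the 4 Fc gamma receptors was nearly the same in the 2 labelled knockout libraries although their summed level differed. That sum was 328 and 975 CPM per kb in the labelled knockout libraries and 346, 297 and 562 CPM per kb in the controls, so the groups overlapped. Fcgr1 took 8.06% and 8.88% of it in the labelled knockout libraries and 34.2%, 30.2% and 48.0% in the controls. Fcgr3 took 65.4% and 63.7% against 41.2%, 47.4% and 24.7%. The inhibitory Fcgr2b took 22.3% and 21.99% against 18.6%, 18.1% and 11.8%. None of these 3 shares overlapped between the groups. The shares of a library sum to a fixed total, so these separations are not independent, and they have no baseline over other genes. Fcgr4 took 4.24% and 5.44% against 5.97%, 4.24% and 15.5%, and overlapped. The length trend for Fcgr3 was -0.42 on the log2 scale in the labelled knockout library 1 and 0.26 in the labelled knockout library 2. Shares corrected for this trend were not computed.

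**Figure D3:**
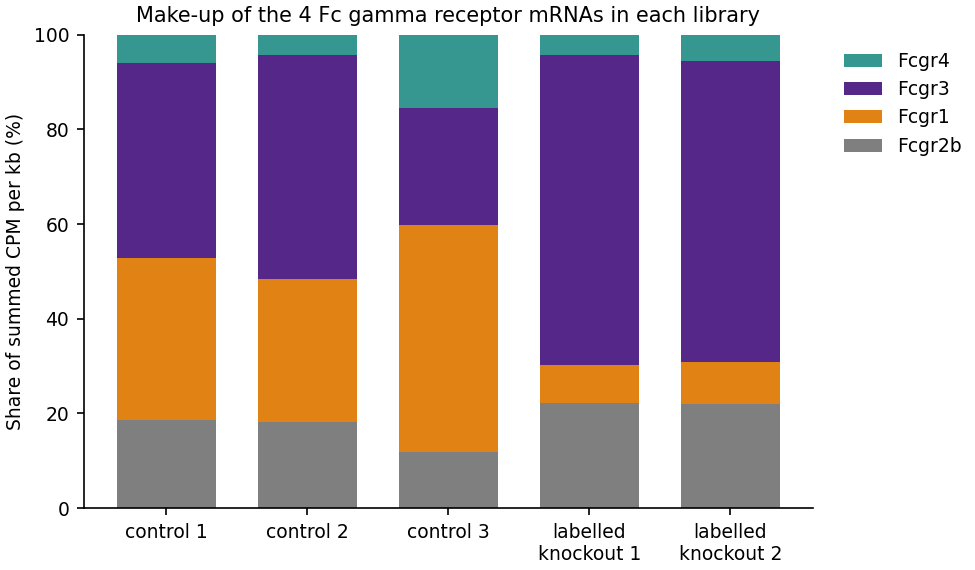
Share in percent (vertical axis, from 0) of the summed CPM per kb of Fcgr1, Fcgr3, Fcgr4 and Fcgr2b that each gene takes in each library, which sums to 100 in a library. The Fcgr1 share is 8.06% and 8.88% in the labelled knockout libraries and 30.2% to 48.0% in the controls. Shares are not corrected for the trend on transcript length.

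The balance of activating to inhibitory receptors was measured as (Fcgr1 + Fcgr3 + Fcgr4) over Fcgr2b, in CPM per kb. This ratio was 3.49 and 3.55 in the labelled knockout libraries and 4.36, 4.52 and 7.49 in the controls. It was lower in both labelled knockout libraries than in any control, by a log2 difference of -0.59. Neither this ratio nor those below were corrected for the trend on transcript length, which differed between the genes. On the log2 scale it was -0.42 for Fcgr3 and 0.08 for Fcgr2b in the labelled knockout library 1. In the labelled knockout library 2 it was 0.26 and 0.02. Whether the groups stay apart after that correction was not tested. The 2-sided exact permutation test gave p = 0.2, which is the smallest p that 2 libraries against 3 can give (10 arrangements), so this test cannot pass 0.05 for any ratio here. Over the 10 ratios computed here the adjusted p of this one was 0.286. The direction rests on Fcgr1: with Fcgr3 and Fcgr4 alone as the activating receptors the log2 difference was 0.11, of the opposite sign (exact permutation p = 0.6).

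In single pairs, Fcgr1 over Fcgr2b was 0.362 and 0.404 in the labelled knockout libraries and 1.83, 1.67 and 4.07 in the controls. Fcgr3 over Fcgr1 was 8.12 and 7.17 against 1.204, 1.57 and 0.514. These were the widest separations, 6.06-fold lower and 7.71-fold higher on the mean log2 scale. Fcgr3 over Fcgr2b, the pair that shares sequence, moved least among the pairs that did not overlap, at 2.94 and 2.90 against 2.21, 2.61 and 2.09.

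Against the shared gamma chain, Fcgr3 over Fcer1g was 0.716 and 0.649 in the labelled knockout libraries and 0.164, 0.256 and 0.119 in the controls. Fcgr1 over Fcer1g was 0.0882 and 0.0904 against 0.137, 0.163 and 0.232. Fcgr3 was thus higher and Fcgr1 lower relative to their common partner, with no overlap in either ratio. Fcgr4 over Fcgr1 did not overlap either (log2 difference 1.51), whereas Fcgr4 over Fcgr2b, Fcer1g over Tyrobp and Fcgrt over B2m overlapped. In all, 7 of the 10 ratios did not overlap, each with an exact permutation p of 0.2 and an adjusted p of 0.286. The share of all gene pairs whose ratio does not overlap was not computed, so this count has no baseline. Fcgr1 over Fcgr2b and Fcgr3 over Fcgr1 could not have overlapped, because their members lay on opposite sides of the controls. Several of the 10 ratios share a gene and are not independent.

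Centring each gene on its mean over the 5 libraries (log2 CPM with a prior count of 2) gives a pattern that can be compared between genes. The likeness measure was the root mean square difference of these centred values, over 8527 genes with a mean of at least 10 CPM. Of the members, Fcgr2b and Fcgr3 were the closest pair (0.20 on the log2 scale), and no gene was closer to Fcgr3 than Fcgr2b. Reads shared between them, as described above, would also bring them together, and their part was not tested. Ncoa4 and Per3 came next for Fcgr3. For Fcgr2b, 5 genes were closer than Fcgr3, led by Ethe1, Tcp11l2 and B3gnt8. Ethe1, at 12.9 and 35.8 CPM against 13.4, 10.4 and 11.4 CPM, showed the high second labelled knockout library with the first inside the controls.

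Fcgr1 was farthest from Fcgr3, at 1.54, and its closest member was Fcer1g at 0.53. The nearest genes to Fcgr1 were Ifi211, Lox and Igtp, of which Ifi211 was at 14.99 and 56.5 CPM against 81.8, 65.8 and 177 CPM. For Fcgr4 they were Tmem171, Mndal and Oas2, with Oas2 at 38.1 and 172 CPM against 83.1, 49.4 and 259 CPM. In both sets control 3 was the highest library, as it was for Fcgr1 and Fcgr4. The nearest genes were Cklf, Cpsf4 and Chmp4b for Fcer1g, and Lmo2, Lgals3 and Gnpda1 for Fcgrt. With 5 libraries many genes can have similar patterns, and these names describe the libraries only.

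**Figure D4:**
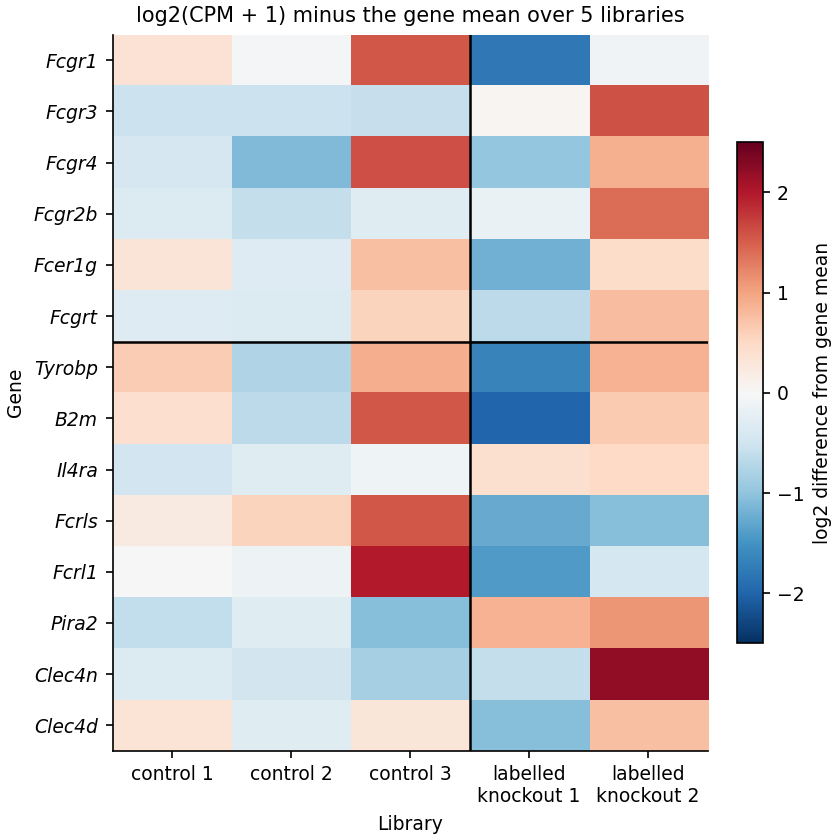
Colour gives log2(CPM + 1), centred on the gene's mean of all 5 libraries, for the 6 members (above the black line) and 8 named genes of the pathway lists (below it). Columns are libraries, red is above and blue below the gene's mean, and Fcgr3 and Fcgr2b share their highest library, the second labelled knockout, while Fcgr1 and Fcgr4 are highest in control 3.

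The promoter stretches of 3 members are shown because the Fcgr1 and Fcgr4 genes follow different libraries from Fcgr3. They are from RefSeq (GRCm38.p6), read 5′ to 3′ on the gene's strand, and each holds 180 bases. Those of Fcgr1 (chr3:96293970-96294149) and Fcgr3 (chr1:171059404-171059583) are on the minus strand and end at the base before an annotated start. That of Fcgr4 (chr1:171018740-171018919) is on the plus strand and ends 7 bases before it. Capitals mark matches, on either strand, to TTCNNNGAA (the GAS element, or gamma-activated site), GAAA followed by any 2 bases and a second GAAA (a core of the interferon-stimulated response element) and GAGGAA (a core of the PU.1 site, read as TTCCTC on the other strand).
Fcgr1 promoter: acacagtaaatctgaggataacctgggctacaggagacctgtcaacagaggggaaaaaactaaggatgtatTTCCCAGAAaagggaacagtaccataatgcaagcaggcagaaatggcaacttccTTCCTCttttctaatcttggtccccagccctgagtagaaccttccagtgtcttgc
Fcgr3 promoter: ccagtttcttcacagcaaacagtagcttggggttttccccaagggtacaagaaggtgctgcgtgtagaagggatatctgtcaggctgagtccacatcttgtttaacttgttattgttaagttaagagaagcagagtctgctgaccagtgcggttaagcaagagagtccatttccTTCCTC
Fcgr4 promoter: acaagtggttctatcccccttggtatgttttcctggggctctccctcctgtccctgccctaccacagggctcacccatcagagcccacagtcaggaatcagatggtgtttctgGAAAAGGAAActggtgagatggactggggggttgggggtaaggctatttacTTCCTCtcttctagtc

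Motifs were searched in whole RefSeq promoter windows, which are longer than the stretches printed above and run past the start. TTCNNNGAA was found in the Fcgr1 window, beginning 109 bases before the start, and in 8.3% of 32851 such windows. The interferon-stimulated core was found for Fcgr4 alone among the members, 73 bases before the start, and in 3.44% of windows. The PU.1 core GAGGAA was present for Fcgr1, Fcgr3 and Fcgr4 at 55, 6 and 22 bases before the start, and in 28.3% of all windows. None of the 3 motifs was found in the windows of Fcgr2b, Fcer1g or Fcgrt. A match here is a description of the letters and not of binding.

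The m6A mark that YTHDF2 reads is placed mainly within a consensus of which GGACT is the best known form. The longest annotated transcripts held 1 GGACT in Fcgr1, 6 in Fcgr2b, 1 in Fcgr3, 3 in Fcgr4, 0 in Fcer1g and 2 in Fcgrt. Per kb this was 0.386, 1.69, 0.742, 2.39, 0 and 1.13 in that order, against a median of 1.04 per kb over 12475 tested genes (quartiles 0.651 to 1.48). Fcgr2b and Fcgr4 lay above the upper quartile and Fcgr1 and Fcer1g below the lower one. Of the 2 members that were higher in both labelled knockout libraries, 1 had a density above the median and 1 below it. The motif does not show that a transcript is methylated.

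On GRCm38 (GENCODE M21) 4 of the 6 members lie close together on chromosome 1. Fcgr2b (ENSMUSG00000026656) spans chr1:170958617-170976547 on the minus strand, Fcgr4 (ENSMUSG00000059089) chr1:171018920-171029761 on the plus strand, Fcgr3 (ENSMUSG00000059498) chr1:171051174-171064935 and Fcer1g (ENSMUSG00000058715) chr1:171229572-171234365, both on the minus strand. Fcgr1 (ENSMUSG00000015947) spans chr3:96282909-96293969 and Fcgrt (ENSMUSG00000003420) chr7:45092990-45103851, both on the minus strand. Fcgr4 lies between Fcgr2b and Fcgr3, and its values overlapped between the groups while theirs did not. Within 100 kb of a member, 49 other genes were in the table and 35 were tested. Of these, 9 had a positive and 26 a negative log2 fold change (median -0.12), 2 lay above and 1 below every control (9.85% and 10.4% over all genes), and 0 had an edgeR unadjusted p under 0.05 (6.68%).

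Other genes of the Fc receptor pathway were read from lists that cover relatives, partners, signalling and regulators. Of 110 such genes tested, 42 had a positive and 68 a negative log2 fold change, with a median of -0.13, beside 51.1% positive and a median of 0.01 over all genes. The groups did not overlap for 6 that were higher and 19 that were lower, where 9.85% and 10.4% of all genes did so. edgeR called 0 of 110 at its adjusted threshold and found 6 at an unadjusted p under 0.05, 3 in each direction, beside 6.68% of all genes. DESeq2 called 2, Pira2 higher and Fcrls lower, beside 1.67% of all genes, and limma-voom called 0.

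Of 13 other Fc receptors and Fc-binding proteins 4 were tested. Fcrls, an Fc receptor-like scavenger receptor that is a marker of microglia, was at 111 and 129 CPM in the labelled knockout libraries against 314, 394 and 795 CPM. Both were well below every control, with a log2 fold change of -2.06 (SE 0.467), a DESeq2 adjusted p of 0.00328 and an edgeR adjusted p of 0.369. The DESeq2 call was lost without the labelled knockout library 1 (adjusted p = 0.0649) and in DESeq2 with the replicate block (adjusted p = 0.114), with log2 fold changes of -1.97 and -1.54. Fcrl1, a receptor-like gene of B cells, was at 3.27 and 7.40 CPM against 10.2, 9.44 and 44.2 CPM. Fcrlb, which encodes an intracellular Fc receptor-like protein, was at 1.84 and 3.78 CPM against 1.13, 0.634 and 1.41 CPM. Trim21, a cytosolic antibody receptor, overlapped at 20.0 and 34.0 CPM against 23.6, 21.04 and 50.5 CPM. The median log2 fold change of the 4 was -1.11, and it was -0.30 without control 3 and -2.17 without the labelled knockout library 2, where 5 passed the filter.

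Of 9 receptors that pair with the Fcer1g chain, 5 were tested, 3 positive and 2 negative (median 0.35, 1.36 without control 3 and -0.84 without the labelled knockout library 2). Pira2, an activating paired immunoglobulin-like receptor, was at 7.61 and 9.19 CPM against 2.07, 2.85 and 1.26 CPM, above every control. Its log2 fold change was 2.01 (SE 0.445), with a DESeq2 adjusted p of 0.0109 and an edgeR adjusted p of 0.360, and the DESeq2 call was lost when any 1 library was left out (adjusted p from 0.0525 to 0.281), with DESeq2 log2 fold changes of 1.76 to 2.34. Pira2 belongs to a family of near-identical genes, so its counts are uncertain. Clec4n, the gene of the fungal receptor dectin-2, was at 31.6 and 230 CPM against 38.2, 34.7 and 26.8 CPM, high in the second labelled knockout library alone. Clec4d and Clec4e, the other C-type lectins of the list, had log2 fold changes of -0.03 and 0.35. Tyrobp, the DAP12 adaptor that serves other microglial receptors in the way Fcer1g serves these, was at 111 and 651 CPM against 552, 211 and 673 CPM, overlapping. Hcst, the DAP10 adaptor, had a log2 fold change of -0.18.

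Signalling genes downstream of the receptors had smaller fold changes than Fcgr1, Fcgr2b or Fcgr3, and list medians this near 0 turned with single libraries. Of 9 proximal kinases 4 were positive and 5 negative (median -0.05, and -0.27 without the labelled knockout library 2). Syk, Lyn and Src had log2 fold changes of 0.22, -0.30 and -0.57. Of 27 genes of activating signalling further down, 13 were positive and 14 negative (median -0.08, 0.07 without the labelled knockout library 1, 0.13 without control 3 and -0.40 without the labelled knockout library 2). Of the 27, 1 lay above every control (9.85% of all genes) and 8 below (10.4%). Among them were Vav1, a Rac exchange factor (-0.60), Pik3cg and Pik3cb, catalytic subunits of PI3 kinase (0.64 and -0.46), the GTPase gene Cdc42 (-0.41) and the ubiquitin ligase gene Cbl (0.26).

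The 13 inhibitory phosphatases and adaptors were split evenly, with 7 positive and 6 negative (median 0.05, 0.16 without the labelled knockout library 1 and -0.42 without the labelled knockout library 2). Inpp5d, which encodes the SHIP1 phosphatase that Fcgr2b recruits, was at 489 and 431 CPM against 348, 406 and 374 CPM, a log2 fold change of 0.29 (SE 0.215). Both values were above every control, by far less than those of Fcgr2b in the second labelled knockout library. Ptpn6, Ptpn11 and Sirpa had log2 fold changes of -0.42, 0.36 and -0.08.

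Of 27 genes of the phagocytic cup and its actin machinery, 8 were positive and 19 negative (median -0.20, -0.09 without the labelled knockout library 1 or without control 3, and -0.49 without the labelled knockout library 2). Below every control were 6 (10.4% of all genes) and above it 1 (9.85%). Cyfip1, a subunit of the WAVE complex, was at 553 and 509 CPM against 783, 985 and 870 CPM. Its log2 fold change was -0.73 (SE 0.245), with an edgeR unadjusted p of 0.0256. Nckap1l, another WAVE subunit, was at 820 and 834 CPM against 1041, 1352 and 1249 CPM, also below every control. Actr3, a subunit of the Arp2/3 complex, and the actin-severing gene Cfl1 had log2 fold changes of -0.71 and -0.59. The 6 NADPH oxidase genes, 4 positive and 2 negative, had a median of 0.02 (0.44 without the labelled knockout library 1 and -0.81 without the labelled knockout library 2) and all overlapped between the groups. Cybb, the catalytic subunit, was at 1444 and 2677 CPM against 2026, 2814 and 1931 CPM. Ncf1, Ncf4 and Cyba, other subunits, had log2 fold changes of 0.13, -0.09 and 0.03.

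Of 17 regulators of Fc receptor expression, 3 were positive and 14 negative (median -0.32), with 1 above and 2 below every control, near the shares over all genes (9.85% and 10.4%). The median was -0.02 without the labelled knockout library 1, -0.21 without control 3 and -0.60 without the labelled knockout library 2. Il4ra encodes the receptor chain that binds interleukin 4 and stood at 202 and 217 CPM against 109, 123 and 142 CPM. Both were above every control, with a log2 fold change of 0.74 (SE 0.208) and an edgeR unadjusted p of 0.0120. C5ar1, the complement C5a receptor, and Tgfbr2, a TGF-beta receptor, had log2 fold changes of -0.80 and 0.32. Of 11 immunoglobulin genes listed, Jchain alone was matched and had too few counts to test, and the other 10 were not analysed here.

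**Figure D5:**
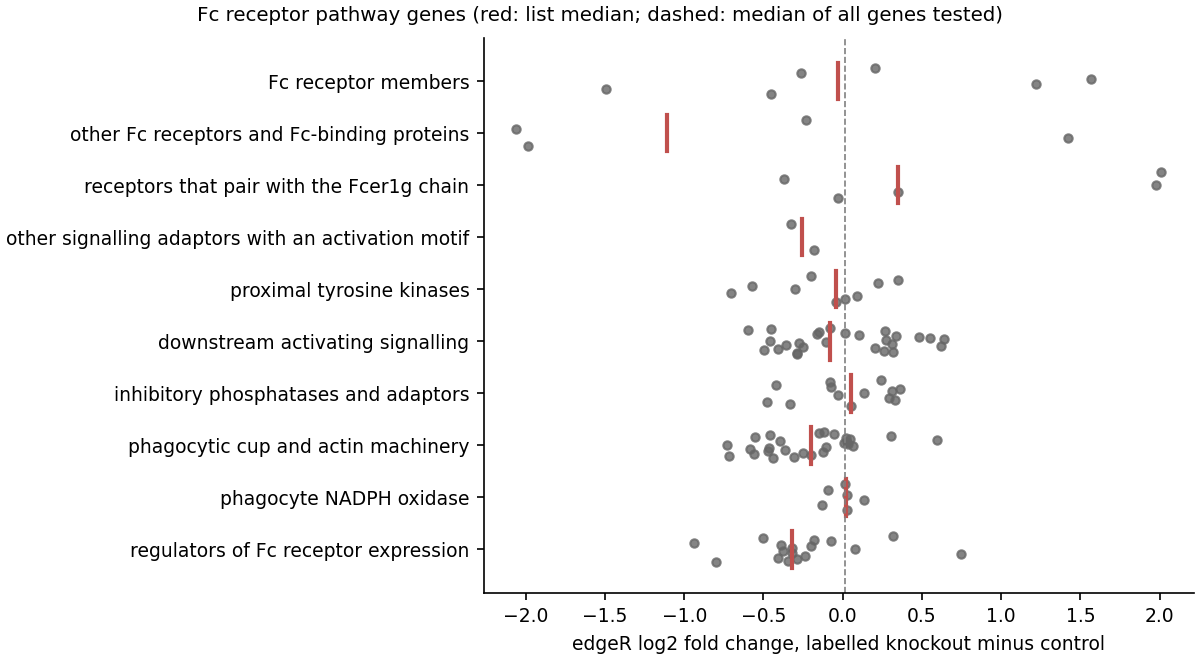
edgeR log2 fold change (horizontal axis, labelled knockout minus control) of each tested gene, 1 point a gene, by list. Red bars are list medians and the dashed line is the median of all genes tested (0.01), and the members spread from -1.50 to 1.57 while the kinases, phosphatases and oxidase genes lie near the line.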

How the data were processed

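RNA from 5 libraries of mouse primary microglia was extracted with Trizol and made into NEBNext Ultra libraries, per the labels' protocols. The deposited values are whole-number read counts per gene symbol, with no normalization by the authors that the values show. Per the submitters' processing notes, FastQC, STAR and HTSeq were used with mm10. The sources used here do not give tool versions, the annotation or the use of strand. Sample titles gave groups and replicate numbers. For the third control, whose title carries 2 numbers, the library number was used. No column of the table was left without a sample.

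The members, lists and tests were chosen with earlier results of these data known. edgeR 4.0.16 (R 4.3.3) ran its quasi-likelihood F test, 2-sided, with filterByExpr, TMM factors and robust estimation over 12543 genes, with 3 residual degrees of freedom. Benjamini-Hochberg adjustment was over all genes tested, at a threshold of 0.05. CPM uses TMM-scaled library sizes, and SE is that of the log2 fold change. DESeq2 1.42.0 adjusted 13854 genes, and limma 3.58.1 gave the voom fit. The tests were checked on simulated data. Ratios within a library used an exact permutation test over libraries (Python 3.11.15). GENCODE M21 (21926 of 21983 symbols matched) gave coordinates, transcripts and overlaps, and RefSeq the promoters.

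Named in any case were the 6 members, Ythdf2 and genes within 100 kb, which are given as counts. Of each pathway list the 3 tested genes with the smallest p and the 2 with the highest mean were named, and for each member the 3 most alike genes with at least 10 CPM on average. Some genes that met this rule are not reported here. Alternatives were other scalings, filters, tests and the legacy quasi-likelihood method, a replicate block, and each library left out. Added after seeing the data were DESeq2 leaving out libraries or blocking on replicate, exon union lengths, and the loess correction for transcript length (span 0.3).

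Replicate numbers were tested for pairing. Deviations from the group means correlated at 0.15 for the libraries numbered 1 and at -0.56 for those numbered 2, so the library numbers showed no pairing. Labelled knockout library 2 and control 3, whose title also carries replicate 2, correlated at 0.47. With 2 labelled knockout libraries the deviations of the first are the exact opposite of those of the second. These values are therefore not independent and cannot decide whether samples were paired.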

Additional observations from a re-analysis of the deposited data

How the results depend on the processing

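With edgeR, 0 members and 0 pathway genes were called under every alternative run, and for the whole table only the replicate block gave calls (4 genes). The samples share only a number, so this block is no pairing of sources. DESeq2 called 232 genes, 0 members and 2 pathway genes. With the replicate block it called 151 genes. With each library left out DESeq2 called 87 to 468 genes (171 and 468 without labelled knockout libraries 1 and 2, then 87, 102 and 304 without controls 1 to 3), 0 to 2 members (2 without the labelled knockout library 1, 1 without the labelled knockout library 2) and 1 to 6 pathway genes (6 without the labelled knockout library 2). Over 21 alternatives the signs of Fcgr1, Fcgr2b and Fcgr3 were kept in all. With libraries left out in edgeR their log2 fold changes ran from -2.59 to -0.88, 0.25 to 1.77 and 0.61 to 2.11, those of Fcgr4 from -1.53 to 1.01, of Fcer1g from -1.52 to 0.12 and of Fcgrt from -0.70 to 0.73. Over the edgeR and limma-voom alternatives that kept both labelled knockout libraries, the adjusted p of Fcgr1, Fcgr2b and Fcgr3 were at least 0.693, 0.652 and 0.264. Fcgr4 turned positive in 6 settings: 0.75 with the replicate block in edgeR and 0.76 in DESeq2, 0.37 and 0.39 without the labelled knockout library 1, and 1.01 and 1.005 without control 3. Fcer1g turned to 0.12 in edgeR and 0.15 in DESeq2 without the labelled knockout library 1, and Fcgrt to -0.70 and -0.68 without the labelled knockout library 2. The cause of these changes was not tested. The activating to inhibitory log2 difference was 0.11 without Fcgr1, -2.23 without Fcgr3, -0.94 with raw counts and -0.73 with exon union lengths. Leaving out libraries gave -0.72 to -0.33. Other scalings moved the median of all genes by at most 0.02. Member counts of 250 or more leave counting error small beside the spread between libraries, and 2 libraries in 1 group set the precision.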
